A study of Drosophila melanogaster with 18 samples.

Results

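Aminoacyl-tRNA synthetases join each amino acid to its tRNA, the step that supplies charged tRNAs to the ribosome. Animal cells keep separate enzymes for the cytosol and for the mitochondrial matrix, and both sets are encoded in the nucleus, so the mitochondrial enzymes have to be imported. In flies the name of a mitochondrial enzyme carries the suffix -m (GluRS-m charges mitochondrial tRNA with glutamate). In mammals, loss of mitochondrial enzymes is known to disturb the respiratory chain, and synthetase genes are among the known targets of the stress factor ATF4.

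The synthetase genes were followed in 18 Affymetrix Drosophila Genome 2.0 arrays of larval CNS, 3 arrays for each of 6 genotypes. A probe set was a member if it carried a single gene symbol and if the current symbol, found through the Entrez identifier, was a 3-letter amino acid code followed by RS, with or without -m, or GluProRS. This rule gave 32 of the 18769 probe sets on the array, for 30 genes. The cytosolic class held 18 probe sets for 16 genes (AlaRS, ArgRS, AsnRS, CysRS, GlnRS, GluProRS, GlyRS, HisRS, IleRS, LeuRS, LysRS, SerRS, ThrRS, TrpRS, TyrRS and ValRS), with 3 probe sets for TrpRS. The mitochondrial class held 14 probe sets for 14 genes (ArgRS-m, AsnRS-m, AspRS-m, CysRS-m, GluRS-m, IleRS-m, LeuRS-m, MetRS-m, PheRS-m, ProRS-m, SerRS-m, TrpRS-m, TyrRS-m and ValRS-m). The classes follow the names alone. GlyRS and LysRS, which in mammals each encode both the cytosolic and the mitochondrial enzyme, stand among the cytosolic ones. AspRS, MetRS and AlaRS-m were not analysed here, and the subunits of cytosolic PheRS have names outside the rule.

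The larvae carried nSyb-Gal4, a driver active in post-mitotic neurons, and the control was the driver alone (nSyb-Gal4/+). The other 5 genotypes added UAS-TFAM3M (TFAM o/e), RNAi against the ETS activator Pointed (Pnt RNAi), RNAi against the ETS repressor Aop (Aop RNAi), or TFAM o/e together with either RNAi. TFAM binds mitochondrial DNA and acts as a transcription factor on it, and its overexpression was the way mitochondria were perturbed in neurons. Each sample pooled the CNS of 20 late-third-instar larvae grown at 25 °C. The sources say that samples were prepared in triplicate and no more, so the p-values measure the spread between these samples. The driver acts in neurons while the RNA came from the whole CNS, glia and progenitors included, and a lower signal can come from fewer cells or from less RNA per cell, which cannot be told apart here.

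Values are log2 signals (MAS5.0), and differences between genotypes are log2 fold changes with standard errors (SE) and Benjamini-Hochberg adjusted p over all 18769 probe sets, from limma. A call is an adjusted p under 0.05. The thresholds of the study's methods, an unadjusted p under 0.05 with a fold change of at least 1.5, were counted beside it. The signal of TFAM lay between 11.84 and 12.58 on the arrays with TFAM o/e and between 10.35 and 10.85 on those without, with a log2 fold change of 1.5 for TFAM o/e against the control (SE 0.17, limma adjusted p = 0.000166). For aop it was 0.027 for Aop RNAi versus the control (SE 0.16, limma adjusted p = 0.995). No probe set is named pnt in the table used, so within these arrays the knock-downs rest on the labels. In eye discs, with another driver, the study reported that RNAi against each gene removed nearly all Aop or PntP2 staining. Among the CNS markers elav, nSyb, repo and mira were at log2 8.73 or above on every array, while brp had 4 probe sets with medians between 1.01 and 6.91. Genes of tissues attached to the CNS were also present and uneven: the mean of 8 salivary gland probe sets (Sgs genes, ng3, Eig71Ee) ran between 6.75 and 9.43 in TFAM o/e, against 5.89 and 8.26 in the control, and that of 4 ring gland probe sets between 7.85 and 10.31 in TFAM o/e, against 5.86 and 9.69 in the control. None of the probe sets in lists of glia, neuron, neuroblast, haemocyte, muscle, ring gland, salivary gland and fat body genes was called in any comparison. Several of these lists did shift: in TFAM o/e against the control the median log2 fold change was 1.62 for salivary gland genes, 4 of 8 of which had an unadjusted p under 0.05, and 1.23 for ring gland genes. Against the same control, ring gland medians were 1.09 in Pnt RNAi, 1.075 in Aop RNAi, 1.64 in TFAM o/e, Pnt RNAi and 1.40 in TFAM o/e, Aop RNAi. Control 3 had the lowest ring gland mean of all arrays, 5.86. Fat body genes had a median of 1.17 in Pnt RNAi and 1.02 in TFAM o/e, Pnt RNAi versus the control. The part of these tissues in the synthetase signals was not tested. Single arrays stood apart. The mean of 4 cytosolic elongation factor probe sets (eEF1alpha2, eEF1gamma, eEF1delta, eEF5) was 13.49 in TFAM o/e, Pnt RNAi 1, 13.34 in Aop RNAi 1 and 13.42 in control 3, and between 12.43 and 12.85 on the other 15. TFAM o/e, Pnt RNAi 1 was the lowest of all 18 arrays for 9 of the 32 members, TFAM o/e, Aop RNAi 1 was the highest for 9, and control 3 was the lowest for 6 and the highest for 7. Leaving out these 3 arrays, or any single array, moved some log2 fold changes of the synthetase and partner genes named below by more than 1.5 times. For these the value without the array, or the array that it leaned on, is given.

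All members were well expressed. Their signals lay between log2 6.97 and 12.14, with cytosolic means between 7.92 (TrpRS 1629619_at) and 11.89 (ThrRS) and mitochondrial means between 7.59 (GluRS-m) and 10.69 (AspRS-m), all above the array medians, which ranged between 5.03 and 5.56. The residual SD within genotypes had a median of 0.18 over members (0.11 for ArgRS to 0.30 for AsnRS-m), beside 0.23 over the 8582 probe sets with a mean log2 of at least 6. It was 0.15 for the cytosolic class and 0.20 for the mitochondrial one. The 6 genotype means of a member spanned between 0.12 (GlyRS) and 0.60 (AsnRS-m) on the log2 scale.

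No synthetase changed with TFAM overexpression past the threshold. Against the control, 0 of 32 members were called in TFAM o/e, where 0.181% of all probe sets were (limma), and 0 had an unadjusted p under 0.05, against 5.53% of all probe sets. The lowest p belonged to TrpRS-m, the mitochondrial tryptophan enzyme. Its signals were 8.85, 8.72 and 8.62 in TFAM o/e, against 9.01, 9.07 and 8.91 in the control. The arrays of the genotypes did not overlap, yet the log2 fold change of -0.27 (SE 0.15) had a limma adjusted p of 0.958. ProRS-m, the mitochondrial proline enzyme, had 8.24, 8.22 and 7.98 in TFAM o/e, against 8.29, 8.38 and 8.63 in the control, again with no overlap and with a log2 fold change of -0.29 (SE 0.20, limma adjusted p = 0.978), or -0.19 without control 3. TyrRS, which charges tyrosine in the cytosol, stood on the other side with 10.83, 10.80 and 10.79 in TFAM o/e, against 10.77, 10.75 and 10.42 in the control (log2 fold change 0.16, SE 0.14, limma adjusted p = 1), a difference of 0.047 without control 3. These were the 3 members whose arrays did not overlap, 9.38% of members beside 8.86% of all probe sets. The limits of the 95% confidence interval were within 1.5-fold for 27 of 32 members and within 2-fold for all 32. The 5 exceptions at 1.5-fold were TrpRS 1629619_at, AsnRS-m, TrpRS-m, MetRS-m and ProRS-m.

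The effect of TFAM was narrowed further by averaging it over its 3 backgrounds (driver alone, Pnt RNAi and Aop RNAi, each with TFAM o/e against the same without it). Over this average 0.543% of all probe sets were called and 0 of 32 members were (limma). The confidence limits of all 32 members lay within 1.5-fold, and the log2 fold changes ran between -0.31 (AlaRS) and 0.17 (TrpRS 1629619_at). The value of TrpRS 1629619_at leaned on TFAM o/e 1, at 8.35, against 7.97 and 7.66 on the other TFAM o/e arrays. Unadjusted p under 0.05 was met by 3 of 32 members (9.38%, beside 7.64% of all probe sets). These were AlaRS at -0.31 (SE 0.096), TrpRS-m at -0.20 (SE 0.088) and SerRS at 0.16 (SE 0.074), with limma adjusted p of 0.32, 0.621 and 0.633.

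**Figure D1:**
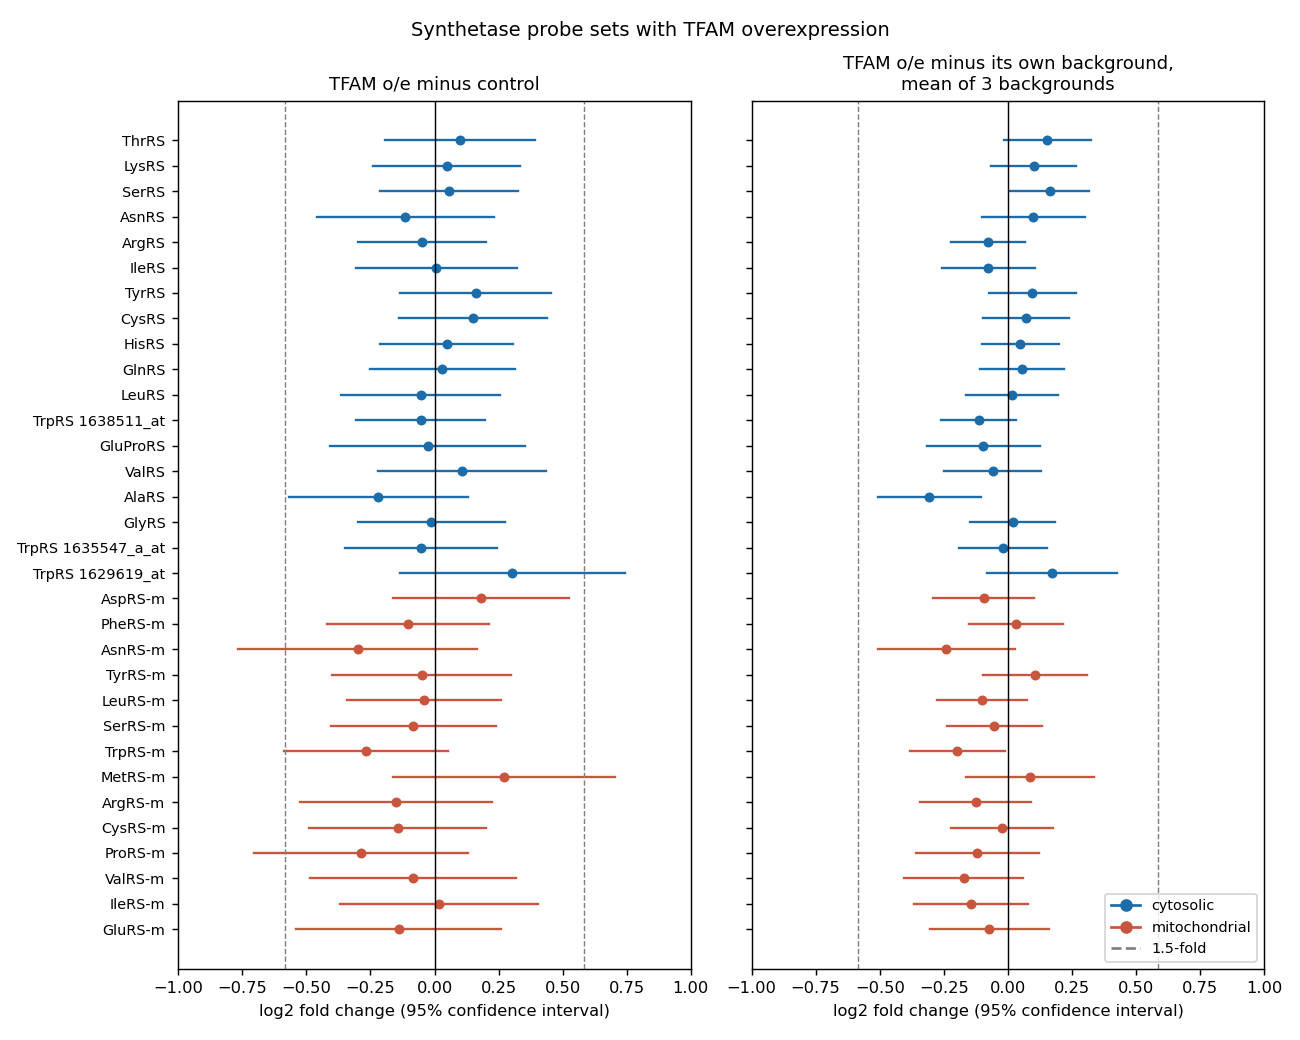
Log2 fold changes (points) with 95% confidence intervals (lines) of the 32 synthetase probe sets, cytosolic in blue and mitochondrial in red, for TFAM o/e minus control (left) and for TFAM o/e minus its own background averaged over 3 backgrounds (right). On the right every interval lies between the dashed lines at 1.5-fold, and AlaRS is the farthest from 0 at -0.31.

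AlaRS, the cytosolic enzyme for alanine, gave the lowest unadjusted p of any member in any pair of genotypes. Its signals were 8.94, 9.50 and 9.66 in TFAM o/e, Pnt RNAi, against 10.01, 9.85 and 9.86 in Pnt RNAi. All 3 arrays with TFAM were below all 3 without, and the log2 fold change was -0.54 (SE 0.17, 95% interval -0.89 to -0.19, unadjusted p = 0.0044, limma adjusted p = 0.5). It was 9.57, 9.45 and 9.93 in TFAM o/e, against 9.86, 9.98 and 9.77 in the control, and these overlapped. It was 9.50, 9.64 and 9.69 in TFAM o/e, Aop RNAi, against 9.73, 9.66 and 9.92 in Aop RNAi, which overlapped too. The array at 8.94, TFAM o/e, Pnt RNAi 1, carries part of the size: without it the log2 fold change against Pnt RNAi was -0.33 (limma adjusted p = 1) and the average over the 3 backgrounds was -0.24 (limma adjusted p = 0.503).

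TFAM o/e, Pnt RNAi against Pnt RNAi called 0 of 32 members, beside 0.139% of all probe sets, and AlaRS was the 1 member with an unadjusted p under 0.05 (3.12%, beside 6.26% of all probe sets). The arrays of these genotypes did not overlap for 9 of 32 members (28.1%, beside 14.5% of all probe sets). Of these, 8 were lower in TFAM o/e, Pnt RNAi (25%, beside 7.67% of all probe sets): AlaRS, ArgRS, IleRS, TrpRS 1638511_at, ValRS, AspRS-m, IleRS-m and ProRS-m. AsnRS was the exception, with 11.04, 10.91 and 10.99 in TFAM o/e, Pnt RNAi, against 10.75, 10.78 and 10.67 in Pnt RNAi. Brighter probe sets were lower as a whole in this pair. Those with a mean log2 of at least 6 had a median log2 fold change of -0.067, with 37.6% above 0. Over all probe sets these were -0.01 and 48.8%, and over the members -0.12 and 31.2%. Non-overlap was not counted over the brighter probe sets alone, in this or any other pair. TFAM o/e, Aop RNAi against Aop RNAi called 0 of 32 members, beside 0.208% of all probe sets, and PheRS-m was the 1 member with an unadjusted p under 0.05 (beside 4.42%).

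The largest log2 fold change of a member in any pair, -0.60, was found between the double genotype TFAM o/e, Pnt RNAi and the control. Still 0 of 32 members were called, beside 0.325% of all probe sets (61 in limma, or 101 with a block for replicate number, again with 0 members). Unadjusted p under 0.05 was met by 4 members, AlaRS, GluRS-m, AsnRS-m and TrpRS-m (12.5%, beside 8.49% of all probe sets), all with negative log2 fold changes. AsnRS-m alone also passed the 1.5-fold threshold of the methods (3.12%, beside 5.68%).

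AsnRS-m charges mitochondrial tRNA with asparagine. It had 8.94, 9.27 and 9.43 in TFAM o/e, Pnt RNAi, against 9.97, 9.46 and 10.02 in the control. The log2 fold change was -0.60 (SE 0.22, 95% interval -1.07 to -0.14, unadjusted p = 0.0139, limma adjusted p = 0.452). The groups did not overlap, but control 2 at 9.46 and TFAM o/e, Pnt RNAi 3 at 9.43 were nearly level. AsnRS-m was also the noisiest member, and in TFAM o/e, Aop RNAi its 9.84, 9.51 and 8.82 covered most of the range seen on the 18 arrays. With the 3 arrays of high elongation factor signal left out, its log2 fold change was -0.36 (limma adjusted p = 0.743) and it no longer passed 1.5-fold.

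GluRS-m supplies glutamyl-tRNA in mitochondria and, in mammals, also the precursor of mitochondrial glutaminyl-tRNA, since there is no separate mitochondrial enzyme for glutamine. Its signals were 6.97, 7.61 and 7.08 in TFAM o/e, Pnt RNAi, against 7.64, 7.61 and 8.08 in the control. The groups met at 7.61, and the log2 fold change of -0.56 (SE 0.19, 95% interval -0.96 to -0.16, unadjusted p = 0.00899, limma adjusted p = 0.384) leaned on the high control 3 and the low TFAM o/e, Pnt RNAi 1. With the 3 arrays left out it was -0.28 (limma adjusted p = 0.737). Pnt RNAi without TFAM gave 7.40, 7.51 and 7.34, all below the control, with a log2 fold change of -0.36 (SE 0.19, limma adjusted p = 0.739), or -0.21 without control 3. The double genotype was also below TFAM o/e on average, where the signals were 7.71, 7.52 and 7.68, with a log2 fold change of -0.42 (SE 0.19, limma adjusted p = 1), the only member of this pair with an unadjusted p under 0.05 (beside 4.6% of all probe sets). In that pair 0 of 32 were called, beside 0.16% of all probe sets.

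AlaRS at 9.37 ± 0.38 in TFAM o/e, Pnt RNAi and 9.87 ± 0.11 in the control (SD, n = 3 each) had a log2 fold change of -0.50 (SE 0.17, limma adjusted p = 0.358). TrpRS-m at 8.66 ± 0.13 in TFAM o/e, Pnt RNAi and 8.997 ± 0.081 in the control (SD, n = 3 each) had one of -0.34 (SE 0.15, limma adjusted p = 0.577). Without TFAM o/e, Pnt RNAi 1 these were -0.29 and -0.28. In all, the arrays of TFAM o/e, Pnt RNAi and of the control did not overlap for 6 members (18.8%, beside 11.7% of all probe sets), and all 6 were lower in TFAM o/e, Pnt RNAi, where 6.72% of all probe sets were lower without overlap: AlaRS, TrpRS 1635547_a_at, TrpRS 1638511_at, AsnRS-m, CysRS-m and TrpRS-m.

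**Figure D2:**
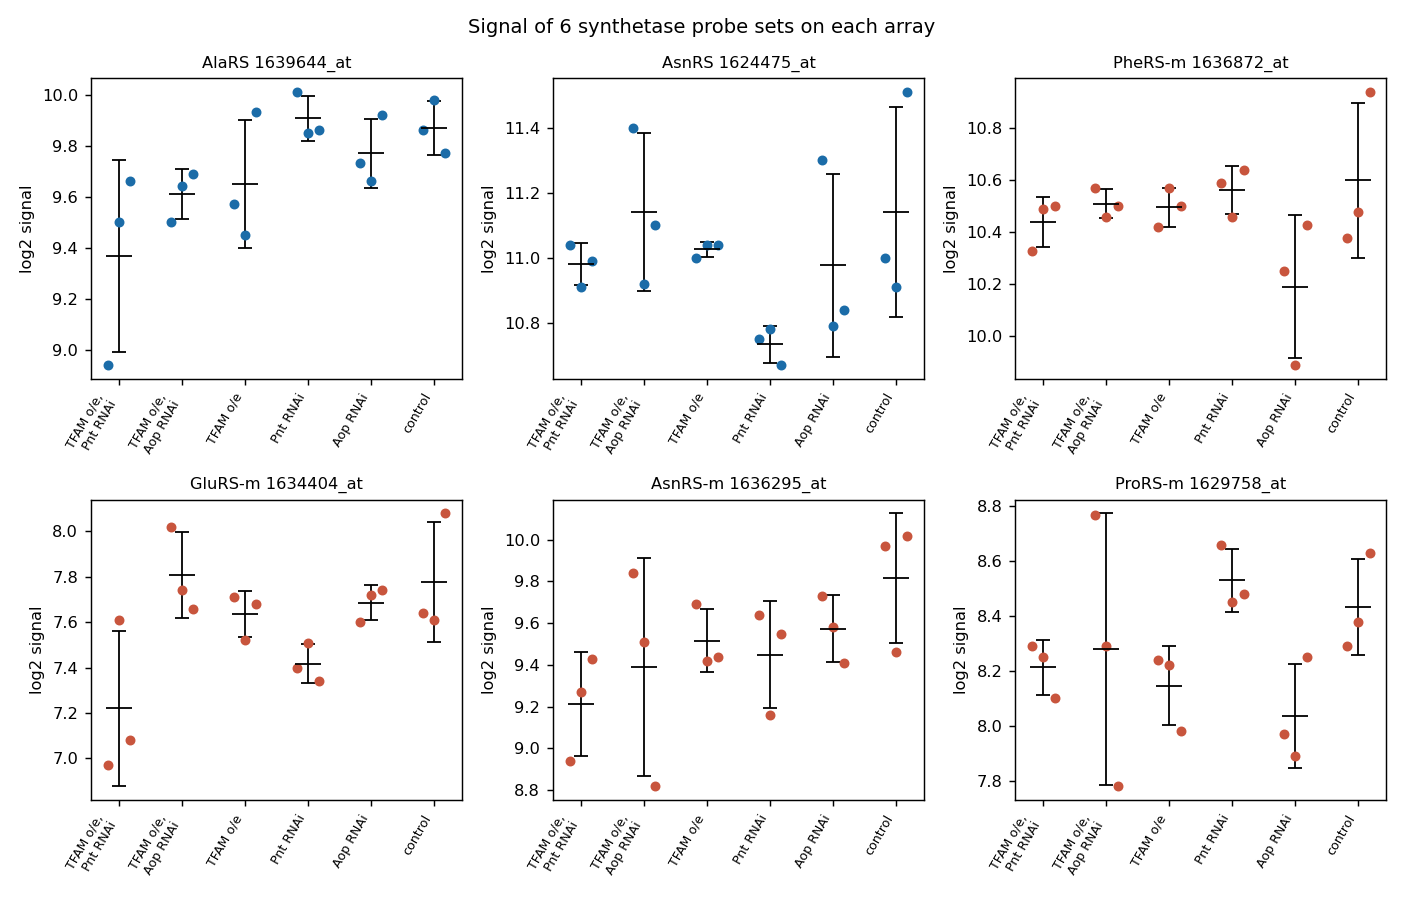
Log2 signals of AlaRS, AsnRS (cytosolic, blue) and PheRS-m, GluRS-m, AsnRS-m, ProRS-m (mitochondrial, red) on each of the 18 arrays, with the mean and SD of each genotype in black. The lowest AlaRS point (8.94) and the lowest GluRS-m point (6.97) are both TFAM o/e, Pnt RNAi 1, and the highest PheRS-m (10.94) and GluRS-m (8.08) points are both control 3.

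Pnt RNAi without TFAM called 0 of 32 members, beside 0.293% of all probe sets, with 4 members at an unadjusted p under 0.05 (12.5%, beside 7.24%) and 0 past the thresholds of the methods (beside 4.93%). AsnRS, the cytosolic asparagine enzyme, had 10.75, 10.78 and 10.67 in Pnt RNAi, against 11, 10.91 and 11.51 in the control (log2 fold change -0.41, SE 0.17, limma adjusted p = 0.61). The groups did not overlap, and the log2 fold change was -0.22 without control 3 (limma adjusted p = 0.99). CysRS-m, the mitochondrial cysteine enzyme, had 8.21, 8.34 and 8.16 in Pnt RNAi, against 8.69, 8.52 and 8.69 in the control (log2 fold change -0.40, SE 0.16, limma adjusted p = 0.615). It stayed between -0.45 and -0.36 whichever array was left out. ArgRS, the cytosolic arginine enzyme and the member with the smallest residual SD, had 10.94, 11.13 and 11.15 in Pnt RNAi, against 10.82, 10.97 and 10.68 in the control, which overlapped (log2 fold change 0.25, SE 0.12, limma adjusted p = 0.687). In all, 8 members had arrays that did not overlap (25%, beside 13.2% of all probe sets). GluProRS, the fused cytosolic enzyme for glutamate and proline, had 10.26, 10.21 and 10.34 in Pnt RNAi, against 9.84, 10.09 and 10.02 in the control (log2 fold change 0.29, SE 0.18, limma adjusted p = 0.781). GluProRS, ValRS and TrpRS 1638511_at were higher in Pnt RNAi, and AsnRS, HisRS, TrpRS 1635547_a_at, CysRS-m and GluRS-m were lower.

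Aop RNAi called 0 of 32 members, beside 0.176% of all probe sets, with 1 at an unadjusted p under 0.05 (3.12%, beside 5.73%) and 2, ProRS-m and TrpRS 1638511_at, with arrays that did not overlap (6.25%, beside 8.59%). The low p belonged to PheRS-m, which charges mitochondrial tRNA with phenylalanine as a single polypeptide. It had 10.25, 9.89 and 10.43 in Aop RNAi, against 10.38, 10.48 and 10.94 in the control. The log2 fold change was -0.41 (SE 0.15, limma adjusted p = 0.659), and -0.24 without control 3. TFAM o/e, Aop RNAi had 10.57, 10.46 and 10.50, above all Aop RNAi arrays (log2 fold change 0.32, SE 0.15, limma adjusted p = 1), and the log2 fold change was 0.17 without Aop RNAi 2. ProRS-m had 7.97, 7.89 and 8.25 in Aop RNAi, below all control arrays at 8.29, 8.38 and 8.63 (log2 fold change -0.40, SE 0.20, limma adjusted p = 0.898). TrpRS 1638511_at had 10.05, 9.99 and 9.93 in Aop RNAi, against 10.19, 10.16 and 10.13 in the control (log2 fold change -0.17, SE 0.12, limma adjusted p = 0.946). TFAM o/e, Aop RNAi versus the control called 0 of 32 (beside 0.229%) with 0 at an unadjusted p under 0.05 (beside 6.11%), and against TFAM o/e also 0 of 32 (beside 0.0959%) with 0 (beside 3.41%).

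TrpRS is the one gene measured by several probe sets, and their differences did not share a sign. In Pnt RNAi, TrpRS 1638511_at had 10.27, 10.20 and 10.24, against 10.19, 10.16 and 10.13 in the control, so that Pnt RNAi was just above (log2 fold change 0.077, SE 0.12, limma adjusted p = 0.909). TrpRS 1635547_a_at had 9.35, 9.36 and 9.43 in Pnt RNAi, against 9.73, 9.49 and 9.85 in the control, so that Pnt RNAi was below (log2 fold change -0.31, SE 0.14, limma adjusted p = 0.674). TrpRS 1629619_at had 7.73, 7.96 and 7.62 in Pnt RNAi, against 7.60, 7.55 and 7.92 in the control, which overlapped. The same probe set had 8.27, 8.04 and 8 in TFAM o/e, Aop RNAi, above all control arrays (log2 fold change 0.41, SE 0.21, limma adjusted p = 0.852), while TrpRS 1638511_at at 10.03, 9.92 and 9.82 was below all of them (log2 fold change -0.24, SE 0.12, limma adjusted p = 0.852). Which transcripts of TrpRS each probe set detects is not given in the sources used here.

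**Figure D3:**
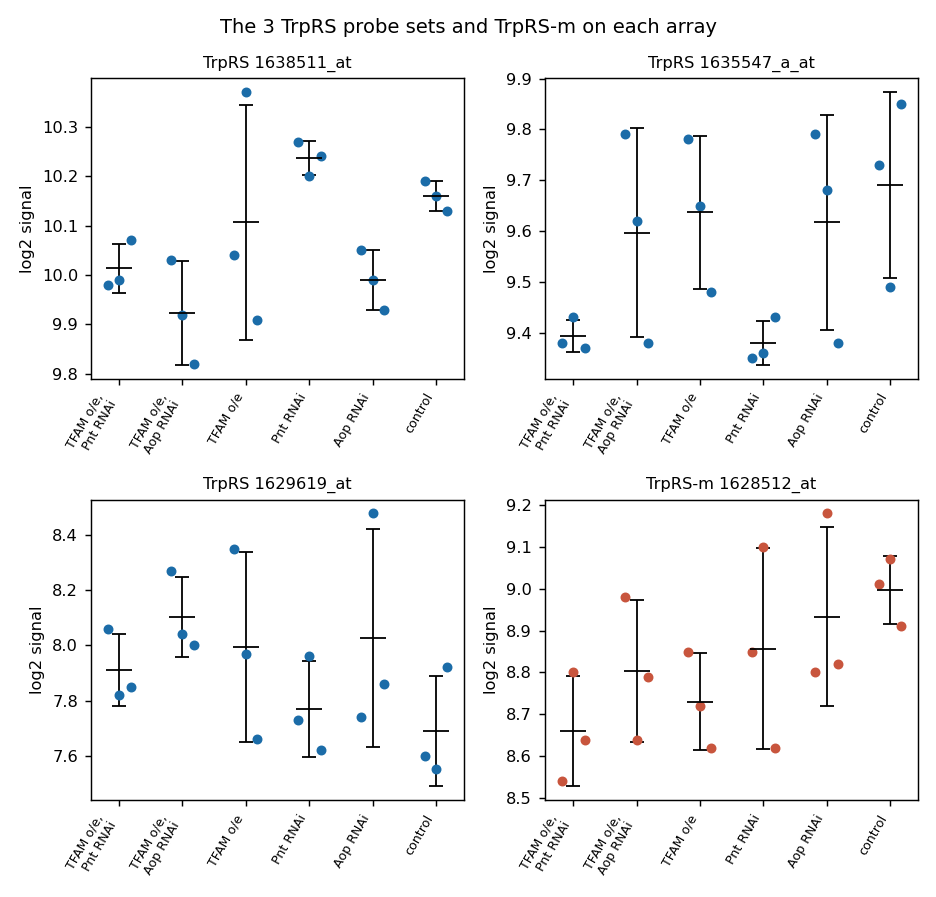
Log2 signals of the 3 TrpRS probe sets (blue) and of TrpRS-m (red) on each array, with the mean and SD of each genotype in black. In Pnt RNAi the 3 arrays lie above the control for 1638511_at and below it for 1635547_a_at.

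Whether the effect of TFAM differed between backgrounds was tested as an interaction. With Pnt RNAi 0 of 32 members were called, beside 0.0266% of all probe sets, and with Aop RNAi 0 of 32, beside 0.0533% (limma). One member had an unadjusted p under 0.05 (beside 4.42%) for the Pnt interaction and 0 (beside 3.99%) for the Aop interaction. That member was AspRS-m, the mitochondrial aspartate enzyme. It had 10.21, 10.75 and 10.69 in TFAM o/e, Pnt RNAi, against 10.88, 10.94 and 10.81 in Pnt RNAi. It had 10.69, 10.68 and 10.86 in TFAM o/e, against 10.60, 10.87 and 10.22 in the control. The interaction of -0.51 (SE 0.23, limma adjusted p = 0.959) rested on control 3 and TFAM o/e, Pnt RNAi 1, and was -0.34 without control 3 and -0.17 with the 3 arrays left out. Over all 6 genotypes at once, 0 of 32 members were called by the F test, beside 0.783% of all probe sets, and GluRS-m and AlaRS had an unadjusted p of 0.0441 and 0.0443 (2 of 32, 6.25%, beside 6.49%), each with a limma adjusted p of 0.74.

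The cytosolic and mitochondrial classes were then set side by side. In TFAM o/e against the control the median log2 fold change was 0.018 over the 18 cytosolic and -0.093 over the 14 mitochondrial probe sets, with -0.033 over all 18769 probe sets and -0.0067 over those with a mean log2 of at least 6. Of the mitochondrial members 11 of 14 were below 0, and of the cytosolic ones 8 of 18. In Pnt RNAi versus the control the medians were 0.023 and -0.052, and in Aop RNAi versus the control -0.028 and -0.10, with 9 and 12 of 14 mitochondrial members below 0. With TFAM o/e, Aop RNAi they were 0.063 and -0.093. The widest split was in TFAM o/e, Pnt RNAi versus the control, at -0.0033 for cytosolic and -0.25 for mitochondrial members, 12 of 14 of which were below 0, beside -0.03 over probe sets with a mean log2 of at least 6. These 5 comparisons share the control arrays, and no test was made of the classes. Averaged over its 3 backgrounds TFAM gave 0.033 for cytosolic and -0.098 for mitochondrial members, beside -0.028 over all probe sets. Membership of enzyme class I or II, the structural families of synthetases, gave medians of -0.05 over 19 class I and -0.048 over 12 class II probe sets in TFAM o/e against the control. They were -0.059 and 0.025 for the average effect of TFAM, and lay furthest apart within the Pnt RNAi background, at -0.18 and -0.018 for the effect of TFAM there and -0.15 and 0.027 for the interaction.

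**Figure D4:**
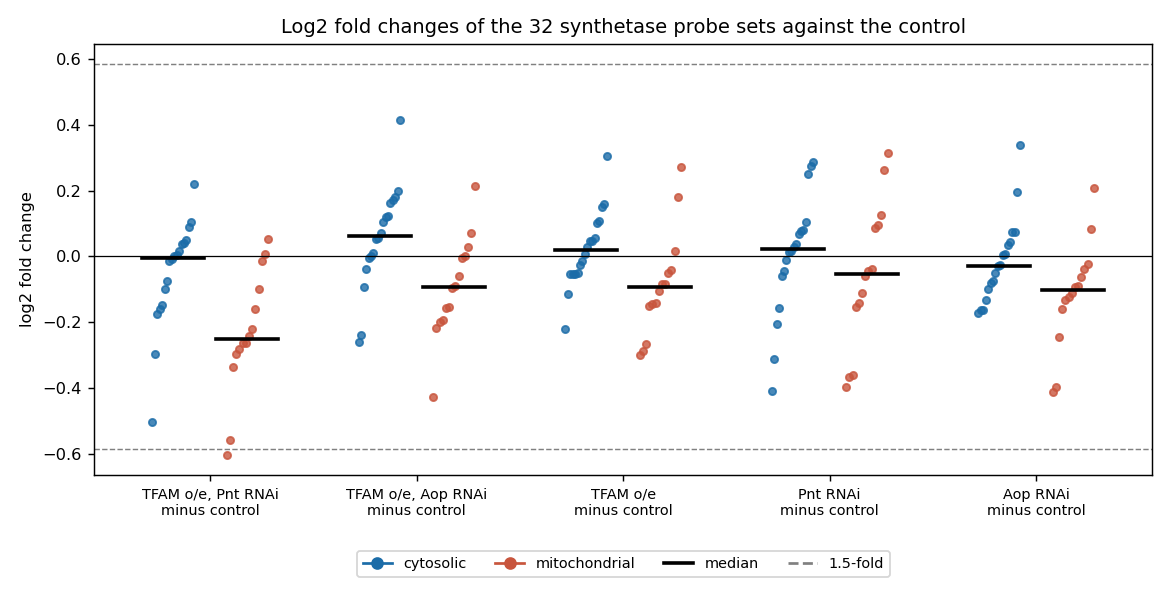
Log2 fold changes of the 18 cytosolic (blue) and 14 mitochondrial (red) synthetase probe sets against the control in each of the other 5 genotypes, with the median of each class as a black bar and 1.5-fold as dashed lines. The mitochondrial median lies below the cytosolic one in each, most in TFAM o/e, Pnt RNAi (-0.25 against -0.0033), but in Aop RNAi the order turned without Aop RNAi 1.

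The same can be read from single arrays. The mean signal of the mitochondrial members was 8.95, 8.89 and 8.89 in TFAM o/e, against 9.003, 8.99 and 8.99 in the control. The means of the control arrays were tight (SD 0.0079) and all above those of TFAM o/e, but single members were not as tight. On control 3 they deviated both ways. MetRS-m was 8.22 there, against 8.92 and 8.76 on the other control arrays, and GluRS-m 8.08, against 7.64 and 7.61. The root mean square deviation of members from genotype means was 0.21 on control 3, within 0.085 to 0.23 over all arrays. The cytosolic mean overlapped, at 10.33, 10.30 and 10.37 in TFAM o/e, against 10.32, 10.31 and 10.30 in the control. The mitochondrial mean in TFAM o/e, Pnt RNAi was 8.64, 8.83 and 8.81, below every control array. It was 9.13, 8.82 and 8.76 in TFAM o/e, Aop RNAi, so that 1 array lay above the control and 2 below. The spread within TFAM o/e, Aop RNAi (SD 0.20) was larger than any difference between genotype means except that between TFAM o/e, Pnt RNAi (8.76) and the control (8.99). Both knock-downs without TFAM were also below every control array, at 8.96, 8.93 and 8.92 in Pnt RNAi and 8.80, 8.88 and 8.96 in Aop RNAi, so that a lower mitochondrial mean was not limited to the genotypes with TFAM o/e.

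**Figure D5:**
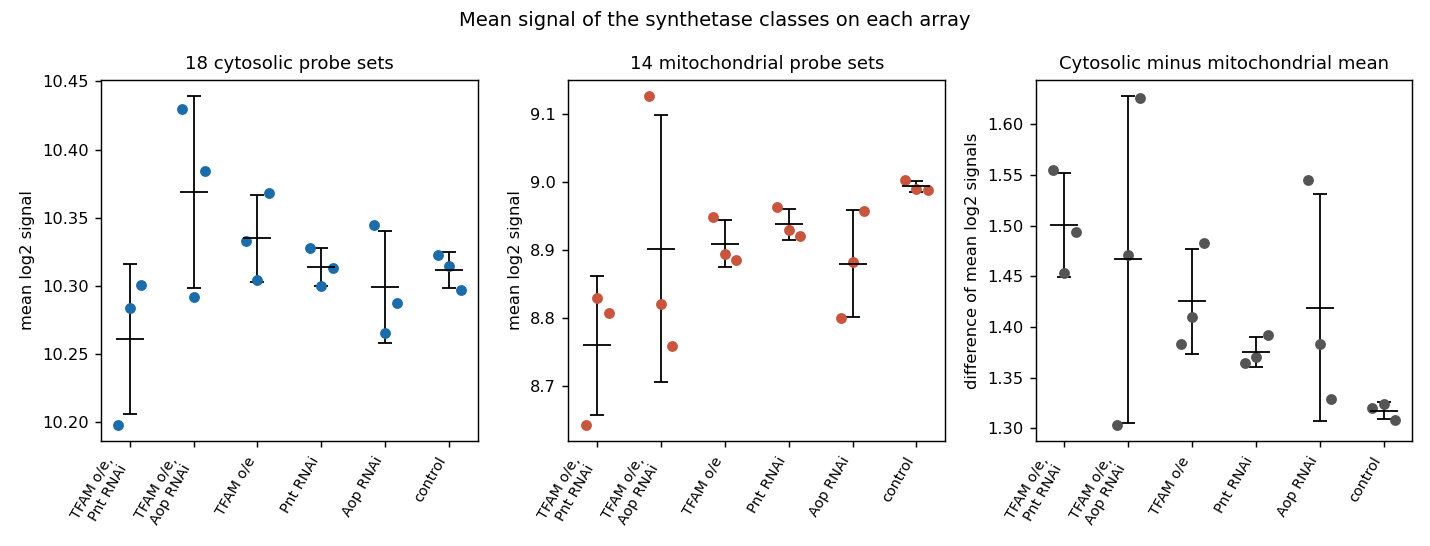
Mean log2 signal of the 18 cytosolic probe sets (left), of the 14 mitochondrial probe sets (middle) and the difference of the means (right) on each of the 18 arrays, with the mean and SD of each genotype in black. The difference lies between 1.45 and 1.55 in TFAM o/e, Pnt RNAi between 1.304 and 1.63 in TFAM o/e, Aop RNAi, between 1.38 and 1.48 in TFAM o/e, between 1.36 and 1.39 in Pnt RNAi and between 1.33 and 1.54 in Aop RNAi, against 1.31 to 1.32 in the control.

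The size of the class medians depends on the scaling and on single arrays. The medians of whole arrays, which lie near log2 5, were lower by 0.10 on average in TFAM o/e than in the control, so that with each array centred on its median the cytosolic value became 0.12 and the mitochondrial one 0.01 for TFAM o/e against the control. The direction of the mitochondrial class in that comparison thus depends on the scaling, as it does in Pnt RNAi versus the control, where the mitochondrial median was 0.028 after centring. With quantile normalization the mitochondrial median stayed below 0, at -0.076 in TFAM o/e and -0.12 in Pnt RNAi versus the control. The gap between the class medians (mitochondrial minus cytosolic) was -0.11 in TFAM o/e against the control. It ran between -0.16 and -0.078 over 13 alternatives, not all of which could move it. Median centring shifts both classes alike, the filter on mean signal and the floor touch no member, and the replicate block leaves the differences unchanged. Keeping 1 probe set per gene did not move the gap either, and leaving out the 3 arrays equalled leaving out control 3. The gap was below 0 with quantile normalization and whichever single array was left out. In Pnt RNAi the same held and the gap was -0.075, but -0.038 without control 3 and -0.155 without control 1. In Aop RNAi it was -0.073, but 0.037 without Aop RNAi 1 and -0.005 with the 3 arrays left out, and the mitochondrial median of -0.10 was -0.034 without Aop RNAi 1. In TFAM o/e, Aop RNAi it was -0.16, and -0.073 without TFAM o/e, Aop RNAi 3. The gap in TFAM o/e, Pnt RNAi was -0.25, and -0.14 without TFAM o/e, Pnt RNAi 1. The mitochondrial median of TFAM o/e, Pnt RNAi was -0.16 without TFAM o/e, Pnt RNAi 1, a move of more than 1.5 times.

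For 11 amino acids a cytosolic and a mitochondrial enzyme were both measured, with GluProRS standing opposite both GluRS-m and ProRS-m. TrpRS entered through 1638511_at, its brightest probe set. The choice matters: in Pnt RNAi versus the control TrpRS 1635547_a_at had -0.31, below TrpRS-m at -0.14, while TrpRS 1638511_at had 0.077. TrpRS-m had 8.85, 9.10 and 8.62 in Pnt RNAi, against 9.01, 9.07 and 8.91 in the control, which overlapped. Its -0.14 leaned on the low Pnt RNAi 3, and Pnt RNAi 2 pulled the other way. In these 11 pairs the mitochondrial log2 fold change was the lower one in 9 for TFAM o/e against the control (median difference -0.19), in 7 for TFAM in the Pnt RNAi background and in 7 in the Aop RNAi background (median -0.063 each), and in 9 for the average of these (median -0.083). It was also the lower one in 8 for Pnt RNAi and in 7 for Aop RNAi versus the control, which carry no TFAM o/e, and in 9 for TFAM o/e, Pnt RNAi and 8 for TFAM o/e, Aop RNAi. For asparagine, TFAM o/e, Pnt RNAi versus the control gave -0.16 for AsnRS, or 0.025 without control 3, and -0.60 for AsnRS-m. For tryptophan it gave -0.15 for TrpRS 1638511_at and -0.34 for TrpRS-m. TrpRS 1635547_a_at had 9.38, 9.43 and 9.37 in TFAM o/e, Pnt RNAi, below its 9.73, 9.49 and 9.85 in the control. For arginine the same comparison gave 0.05 for ArgRS, or -0.022 without control 3, and -0.30 for ArgRS-m. ArgRS-m had 8.18, 8.48 and 8.61 in TFAM o/e, Pnt RNAi, against 8.64, 8.58 and 8.94 in the control, which overlapped, and its log2 fold change was -0.065 with the 3 arrays left out. Pnt RNAi versus the control gave -0.41 for AsnRS and -0.37 for AsnRS-m, so that both asparagine enzymes had lower means there, though the value for AsnRS-m was -0.22 without Pnt RNAi 2. None of these values passed the test, and the pairs share their arrays.

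Genes that work with the synthetases were taken from hand-written lists, and none was called in any comparison (limma). The lists held 6 probe sets of synthetase partners (the PheRS subunits, the scaffold proteins AIMP1 to AIMP3, and Slimp, a mitochondrial relative of the serine enzyme), 12 of mitochondrial tRNA use, 8 of mitochondrial tRNA processing and transcription, 13 of the uncharged tRNA and ATF4 arm, and 4 of cytosolic elongation. In TFAM o/e against the control their median log2 fold changes were -0.082, 0.10, -0.19, 0.0067 and -0.12, beside -0.033 over all probe sets. The mean of the elongation list was 12.62, 12.54 and 13.42 in the control, against 12.65, 12.77 and 12.82 in TFAM o/e. For mitochondrial tRNA use the mean was 8.57, 8.57 and 8.02 in the control, against 8.55, 8.43 and 8.49 in TFAM o/e. The direction for both of these lists thus depended on control 3. The lowest p of the listed genes belonged to rswl, a protein subunit of mitochondrial RNase P, which frees the 5′ ends of mitochondrial tRNAs. It had log2 fold changes of -0.49 in TFAM o/e, Pnt RNAi (SE 0.12, limma adjusted p = 0.121) and -0.33 in TFAM o/e (SE 0.12, limma adjusted p = 0.665) against the control. GatB, a subunit of the amidotransferase that in mammals completes mitochondrial glutaminyl-tRNA after GluRS-m, had 0.48 in Pnt RNAi versus the control (SE 0.15, limma adjusted p = 0.356), and its partner GatA -0.49 (SE 0.20, limma adjusted p = 0.599). AIMP3, from the list of synthetase partners, had -0.38 in Pnt RNAi and -0.42 in Aop RNAi versus the control (SE 0.16 each, limma adjusted p of 0.616 and 0.673). AsnS, the enzyme that makes asparagine and an ATF4 target in mammals, had 0.39 in TFAM o/e against the control (SE 0.16, limma adjusted p = 0.823), or 0.26 without control 3.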

How the data were processed

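RNA from the CNS of 20 larvae per sample was hybridised to 18 arrays, 3 for each of 6 genotypes. The authors made the deposited log2 signals with the MAS5.0 algorithm in the Transcriptome Analysis Console (no version is given in the submitters' processing notes), and these log2 values were used without further scaling. The table holds 18952 probe sets. Without its 183 controls, 18769 remained, and none of these was filtered. The platform table gave 1 gene symbol for 13646 of these, several for 402 and none for 4721. Symbols were updated through Entrez identifiers with the RefSeq gene table for 13543 probe sets, among them all 32 members. The array's genome build is not given in the sources used here, so no coordinates or sequences are printed, and promoters were not searched. For arrays, the number of replicates limits the precision.

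The 6 genotypes entered a single limma model (limma 3.58.1, R 4.3.3) with moderated 2-sided tests, a variance trend on intensity, and p-values adjusted by Benjamini-Hochberg within each comparison. The 12 comparisons were 9 between pairs of genotypes, the average effect of TFAM over 3 backgrounds and 2 interactions, beside an F test over all genotypes. The pipeline was tested on simulated data. Array values are given for the 5 cytosolic and 5 mitochondrial probe sets of lowest F test p, for members past the thresholds of the methods, and, in the comparisons described, for their partners for the same amino acid. Other members whose arrays are given (CysRS-m, AspRS-m, TyrRS, and MetRS-m for the control arrays only) were added once their values were known. The members, the lists and the tests were chosen with earlier results of these data known.

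Other settings tried were median centring or quantile normalization of the arrays, a filter at a mean log2 of 6, a floor at a signal of 32 (log2 5), a fit without the trend, a fit of only those arrays that are compared, a block for replicate number, the methods' t-test with equal variances, 1 probe set per gene, and each array left out in turn. Leaving out together the 3 arrays with high elongation factor signals was added after seeing the data. Pairing by replicate number was examined through the correlation of deviations from genotype means over 8582 probe sets. TFAM o/e, Pnt RNAi paired with the control (correlations of 0.171, 0.268 and 0.233) and with TFAM o/e (0.335, 0.177 and 0.429), while in every other pair at least 1 correlation was not above 0.1. Nothing in the labels gives this pairing. Figures were drawn with matplotlib 3.10.9.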

Additional observations from a re-analysis of the deposited data

How the results depend on the processing

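No member was called in any comparison under any of the 28 alternatives (239 counts, limma or the methods' t-test with Benjamini-Hochberg adjustment), and the lowest adjusted p of a member was 0.171 (SerRS, average effect of TFAM, 3 arrays of high elongation factor signal left out). The 26 values of named members include the F test ranges of 5 cytosolic and 5 mitochondrial probe sets, which cannot change sign. The others were picked for an unadjusted p under 0.05 (limma), and none of these changed sign. Values outside the 26 did, such as AsnRS and ArgRS in TFAM o/e, Pnt RNAi versus the control without control 3. With a block for the replicate number the call count stayed at 0, with a lowest member adjusted p of 0.232 for TFAM o/e, Pnt RNAi versus the control and 0.193 for the average effect of TFAM (both AlaRS). Counts over all probe sets moved more. In the 9 pairs of genotypes they lay between 18 and 61, but between 1 and 17 with only the arrays compared and between 0 and 2 with the methods' t-test (2 and 0 for TFAM o/e relative to the control, in place of 34). The block gave 101 in TFAM o/e, Pnt RNAi versus the control in place of 61, and without the 3 arrays there were 38 there and 28 in place of 55 in Pnt RNAi versus the control. Median centring gave 63 in place of 102 for the average effect of TFAM and 17 in place of 26 for TFAM in the Pnt RNAi background, where a fit without the intensity trend gave 16. A mean log2 of at least 6 gave 11 in place of 18 in TFAM o/e, Aop RNAi relative to TFAM o/e. The interactions, at 5 and 10, lay between 2 and 9 and between 3 and 10. The 1 member past the thresholds of the methods in TFAM o/e, Pnt RNAi versus the control (AsnRS-m) did not pass them with quantile normalization, median centring, the methods' t-test, the 3 arrays left out, or without control 3 or TFAM o/e, Pnt RNAi 1, and 2 members passed without control 2.

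The class medians (log2 fold change) moved by more than the SD of class means between arrays in the following cases, and the cause was not tested beyond what each setting changes. With median centring the cytosolic median was 0.12 in TFAM o/e and 0.10 in Pnt RNAi versus the control, 0.13 in TFAM o/e, Aop RNAi versus the control, -0.15 in TFAM o/e, Pnt RNAi against TFAM o/e, -0.082 in TFAM o/e, Pnt RNAi against Pnt RNAi, 0.17 in TFAM o/e, Aop RNAi against Aop RNAi (0.165 before rounding), 0.084 for the average effect of TFAM and -0.27 for the TFAM and Pnt interaction. The mitochondrial median was then 0.01 in TFAM o/e against the control, 0.097 in TFAM o/e, Aop RNAi against Aop RNAi and -0.20 for the TFAM and Pnt interaction. With quantile normalization it was -0.0901 in TFAM o/e, Pnt RNAi against Pnt RNAi. With the 3 arrays left out the cytosolic median was -0.08 in Aop RNAi and 0.011 in TFAM o/e, Aop RNAi versus the control, -0.059 for the TFAM and Pnt interaction and 0.099 for the TFAM and Aop interaction, and the mitochondrial median in TFAM o/e, Pnt RNAi against TFAM o/e was -0.041.

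Leaving out each array in turn gave cytosolic medians of -0.071 to 0.021 in Aop RNAi, -0.048 to 0.028 in TFAM o/e, Pnt RNAi and 0.011 to 0.14 in TFAM o/e, Aop RNAi versus the control, 0.022 to 0.11 in TFAM o/e, Aop RNAi against TFAM o/e, 0.034 to 0.12 in TFAM o/e, Aop RNAi against Aop RNAi, and -0.012 to 0.08 for the TFAM and Aop interaction. Mitochondrial medians ran between -0.19 and -0.041 in TFAM o/e, Pnt RNAi against TFAM o/e (-0.041 without TFAM o/e, Pnt RNAi 1), -0.13 and 0.08 in TFAM o/e, Aop RNAi against Aop RNAi, -0.16 and 0.027 for the TFAM and Pnt interaction, and -0.03 and 0.18 for the TFAM and Aop interaction. All members lay above log2 6 on every array, with the lowest at 6.97 (GluRS-m). No background estimate was used, so whether signal over background limited any member was not tested. With 3 arrays per genotype, 95% limits were wider than 1.5-fold for 3 to 12 of 32 members in the 9 pairs. Within 1.5-fold were 62.5% to 90.6% of members, beside 49.6% to 63.1% of probe sets with a mean log2 of at least 6.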
